A study of Mus musculus with 199 samples.

Results

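The 13 protein-coding genes of the mouse mitochondrial genome were followed across 199 RNA-seq libraries of tumour cells, together with 2 of their nuclear copies, the pseudogenes Gm28437 and Gm28438. The members were the rows of the expression table on chromosome MT plus these 2 rows on chromosome 1, 15 of 31581 gene rows in all. All 13 rows on chromosome MT code for proteins, and the ribosomal and transfer RNAs of the mitochondrion were not analysed here. Levels are given as CPM, the estimated reads of a row scaled to a common total over all gene rows of its library, with the ERCC spike-in transcripts left out.

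The libraries came from KP1, a line of mouse small-cell lung cancer labelled Rb1-/-Trp53-/-, kept in culture as spheroids or recovered as liver colonies from nude mice, which are immunocompromised, or from F1 mice, which are immunocompetent. Groups of 10 cells were cut from frozen sections of 8 µm by laser, and their poly(A) RNA was amplified by PCR before sequencing. There were 28 such 10-cell libraries of KP1 spheroids, 33 of nude liver colonies and 31 of F1 liver colonies, and 20, 35 and 24 libraries labelled pool-and-split controls, a design in which captured material is mixed and then divided into portions. RPC, a pre-cancerous line labelled Rb1-/-Trp53-/-p130-/+Crebbp-/-, gave 24 10-cell libraries of spheroids, and bulk libraries of whole spheroids were made from 500 ng of total RNA by another protocol for KP1, KP2 (Rb1-/-Trp53-/-Ptch1+/lacz), KP3 (Rb1-/-Trp53-/-Axin2+/lacz) and KP5 (Rb1-/-Trp53-/- BAT-GAL), 1 library each. All captured groups but RPC share the KP1 line and its deletions. The labels name no animals or cultures, so the p-values below measure the spread between these libraries, which may be technical in part.

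Mitochondrial DNA is a small circle present in many copies per cell. It is transcribed as long precursors from both strands, which are cut at the transfer RNAs that lie between most genes. Most of the messenger RNAs then receive short poly(A) tails. Its protein genes code for core subunits of the respiratory chain, of complex I (the Nd genes), complex III (Cytb) and complex IV (the Co genes), and of the ATP synthase, complex V (the Atp genes). All other subunits, all of complex II, and the proteins that copy, transcribe and translate mitochondrial DNA are coded in the nucleus. Stretches of mitochondrial DNA have also been inserted into nuclear chromosomes, where they remain as pseudogenes.

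Such an insertion lies on chromosome 1 of the mouse genome (GRCm38, 24611535 to 24616197, minus strand) and holds 7 annotated pseudogenes, each a copy of 1 mitochondrial gene. Gm28437 (ENSMUSG00000101111, chromosome 1, 24613189 to 24613971) copies mt-Co3 (ENSMUSG00000064358, MT, 8607 to 9390) with 783 of 783 bases identical, and the gene is longer by 1 base. Gm28438 (ENSMUSG00000101939, chromosome 1, 24612775 to 24613119) copies mt-Nd3 (ENSMUSG00000064360, MT, 9459 to 9806) with 344 of 345 bases identical, and the gene runs on for 3 bases. The other copies are Gm29216 for part of mt-Co1 (486 of 492 bases identical), Gm28661 for mt-Co2 (681 of 681), Gm10925 for mt-Atp6 (678 of 678), Gm10222 for mt-Nd4l (294 of 294) and Gm28439 for part of mt-Nd4 (876 of 876). A read from such a stretch fits the gene and the copy equally well, so the division of reads within a pair is an estimate, and the sum of a pair is the safer quantity. The genes mt-Nd1, mt-Nd2, mt-Nd5, mt-Nd6, mt-Cytb and mt-Atp8 have no copy in this block.

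The ends of the pairs that matter most below are shown to make plain how little separates them. They are written 5′ to 3′ along the gene, in lower case, from the GRCm38 transcripts, and the capitals mark every base in which gene and copy differ or that the gene has beyond the end of its copy. The last bases of mt-Co3 and Gm28437 differ by a single final base, the start of a stop codon that the poly(A) tail completes.
mt-Co3 (chrMT:9331-9390, plus strand): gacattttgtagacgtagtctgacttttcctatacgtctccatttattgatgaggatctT
Gm28437 (chr1:24613189-24613247, minus strand): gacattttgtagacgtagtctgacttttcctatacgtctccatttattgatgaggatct
The first bases of mt-Nd3 and Gm28438 hold their 1 substitution, T3C counted from 1 at the gene's 5′ end, with the gene's base first.
mt-Nd3 (chrMT:9459-9518, plus strand): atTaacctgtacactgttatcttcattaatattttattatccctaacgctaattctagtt
Gm28438 (chr1:24613060-24613119, minus strand): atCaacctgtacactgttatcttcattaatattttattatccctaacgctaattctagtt
The last bases of the mt-Nd3 pair and of the mt-Atp6 pair differ by the stop codon, before which the annotated copies end.
mt-Nd3 (chrMT:9747-9806, plus strand): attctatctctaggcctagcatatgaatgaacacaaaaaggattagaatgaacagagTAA
Gm28438 (chr1:24612775-24612831, minus strand): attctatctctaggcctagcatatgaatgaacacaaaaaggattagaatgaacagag
mt-Atp6 (chrMT:8548-8607, plus strand): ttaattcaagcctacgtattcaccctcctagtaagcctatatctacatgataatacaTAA
Gm10925 (chr1:24613974-24614030, minus strand): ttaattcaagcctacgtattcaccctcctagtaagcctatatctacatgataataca

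Gene counts per library were 718208 to 7557773 in the 195 captured libraries and 17266200 to 42447973 in bulk. At the lowest depth of each 10-cell group, 3 counts correspond to 0.795 CPM in spheroids, 4.18 CPM in nude liver, 1.82 CPM in F1 liver and 0.861 CPM in RPC. The neuroendocrine markers that define the tumour type (11 genes) summed to a median of 1993 CPM (648 to 2611) in spheroid, 1340 CPM (36.2 to 2398) in nude liver, 1584 CPM (639 to 4820) in F1 liver and 1418 CPM (714 to 1798) in RPC 10-cell libraries. They thus had lower medians in the same 3 groups as the mitochondrial genes below, and their part in those results was not tested. Hepatocyte markers (12 genes) summed to a median of 696 CPM (3.22 to 3807) in nude liver 10-cell libraries and 195 CPM (0 to 1337) in F1 liver, against at most 83.2 CPM in spheroids, where 9 of the 12 were at 0 in every library. The sum of 5 erythrocyte markers reached 32920 CPM in F1 liver. Spike-ins made up a median of 0.00465% of counts in spheroid, 0.969% in nude liver, 2.16% in F1 liver and 0.333% in RPC 10-cell libraries. Splits that the labels do not name ran through the libraries: 9 of 28 spheroid 10-cell libraries (6 of 20 pools) held at least 0.1% spike-in, and 5 of 31 F1 10-cell libraries (5 of 24 pools) had the ribosomal pseudogene Rpl19-ps11 under 100 CPM. Its 10-cell medians were 87.4 CPM in spheroids, 96.7 in nude liver, 111 in RPC and 452 in F1 liver.

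Mitochondrial messages took a larger share of the library in KP1 spheroids than in either liver. The 13 genes held 5.27 ± 1.63% of gene counts (mean ± SD, n = 28) in spheroid 10-cell libraries, 2.26 ± 1.47% (n = 33) in nude liver, 1.81 ± 1.12% (n = 31) in F1 liver and 2.9 ± 1.22% (n = 24) in RPC spheroids. All 31 F1 liver libraries and 32 of 33 nude liver libraries lay below the spheroid median of 5.36%, and the ranges overlapped. With the 7 copies counted in, the shares were 7.15 ± 2.01%, 2.77 ± 1.75%, 4.67 ± 1.79% and 3.92 ± 1.71%, so F1 liver moved from below nude liver to above it. Counted over the 6 genes with no copy in the block, the shares were 1.11 ± 0.402% in spheroids, 0.34 ± 0.217% in nude liver, 0.503 ± 0.222% in F1 liver and 0.48 ± 0.233% in RPC. These sums are given as a description, with no test. A lower share can come from fewer cells of a kind or from less mitochondrial RNA per cell, and libraries of 10 cells cannot tell these apart.

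**Figure D1:**
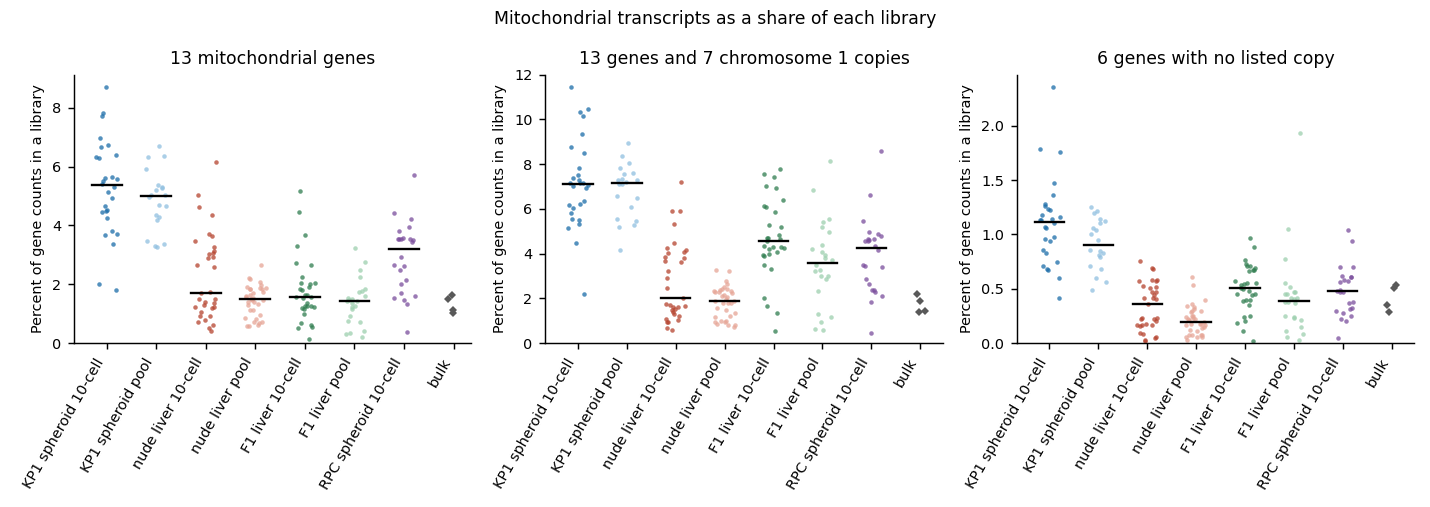
Percent of gene counts in each library (points) on the 13 mitochondrial genes, on these with the 7 chromosome 1 copies, and on the 6 genes with no listed copy, by group; black lines are medians and diamonds the 4 bulk libraries. By median KP1 spheroids are highest in each panel, and F1 liver lies above nude liver once the copies are counted.

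Per kilobase of gene, mt-Co3, a core subunit of cytochrome c oxidase, was the most abundant in spheroids, with a mean of 26651 CPM per kb. It was followed by mt-Atp6 (11913), mt-Co2 (11408), mt-Nd1 (7350) and mt-Nd3 (5588 CPM per kb). The lowest were mt-Atp8 (392), mt-Nd5 (93.6) and mt-Nd4l (0.605 CPM per kb), and mt-Nd5 and mt-Nd4l were last in nude liver, F1 liver and RPC too. The order was led by mt-Co3 in nude liver (11797) and RPC (16054) and by mt-Atp6 in F1 liver (6047 CPM per kb), where mt-Co3 stood at 4340. With each gene summed with its copy, mt-Co3 led in all 4 groups, at 39887 CPM per kb in spheroids, 13145 in nude liver, 29099 in F1 liver and 19336 in RPC, followed by mt-Co2, and mt-Co1 rose from rank 8 to rank 5 in spheroids. mt-Nd4l, a small complex I subunit, was at 0 in 27 of 28 spheroid, 28 of 33 nude liver, 30 of 31 F1 liver and 21 of 24 RPC 10-cell libraries. Its identical copy Gm10222 had counts in 26 of 28, 21 of 33, 23 of 31 and 21 of 24 of them, and the pair summed to means of 8.67, 10.1, 4.89 and 6.32 CPM.

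**Figure D2:**
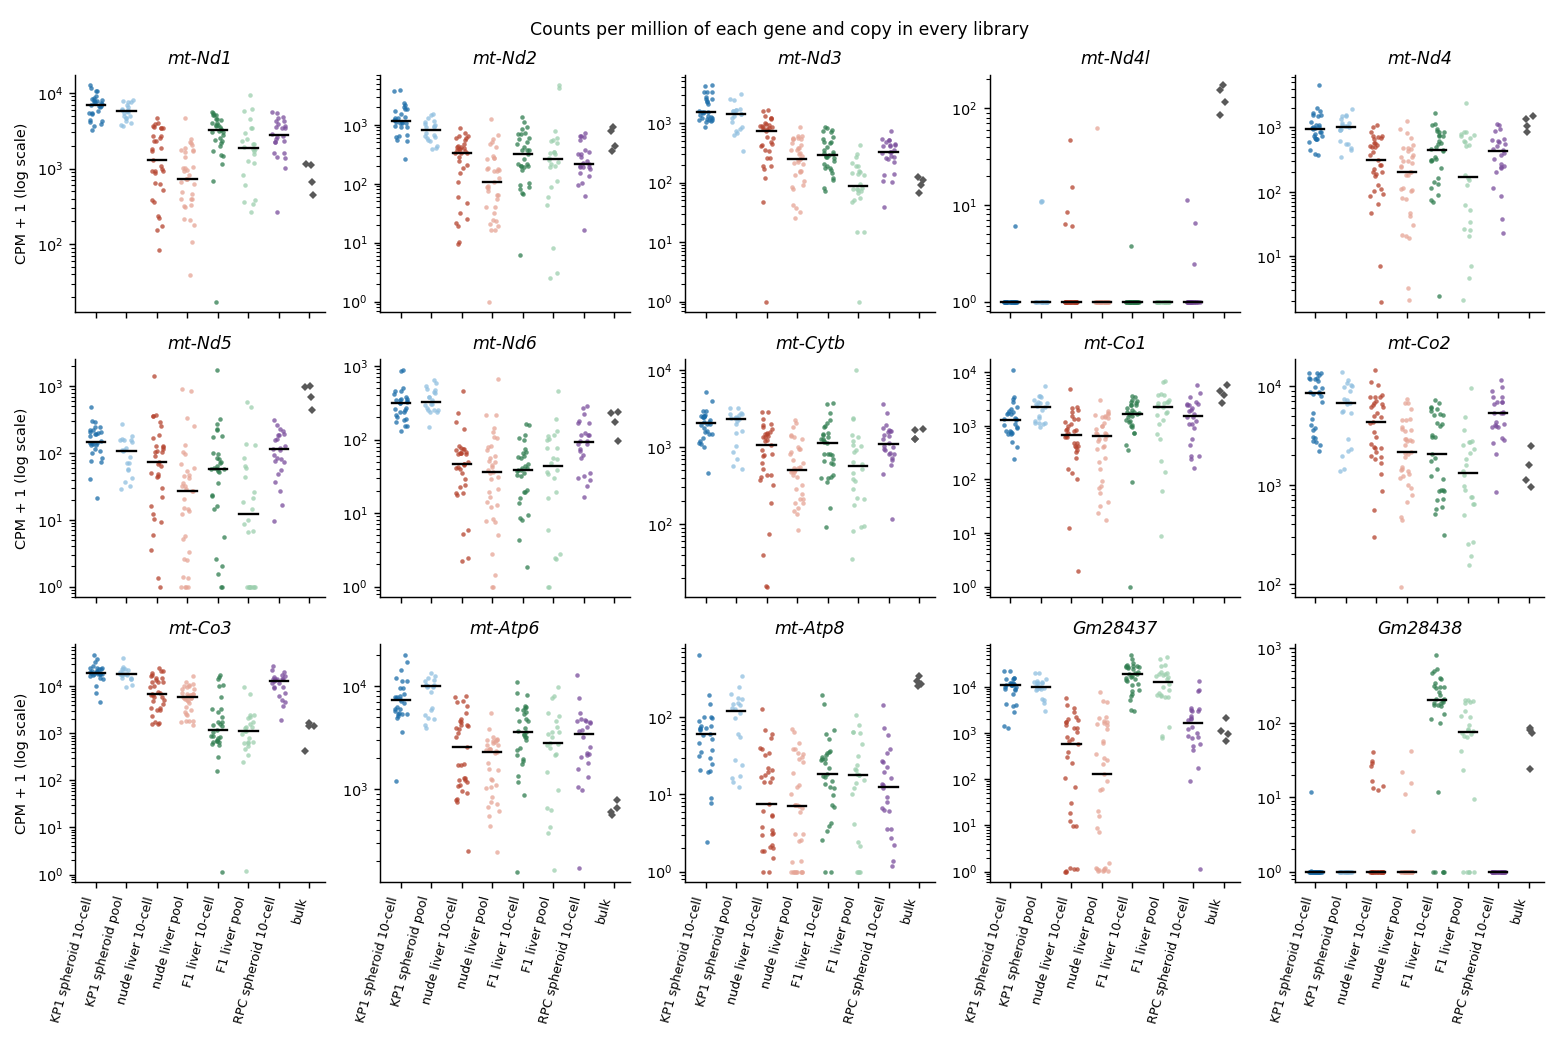
CPM + 1 on a log scale for the 13 mitochondrial genes and 2 nuclear copies in every library (points) of the 7 captured groups, with the group median as a black line, and in the 4 bulk libraries (diamonds). Most genes sit highest in KP1 spheroids; Gm28437 and Gm28438 sit highest in F1 liver among the captured groups.

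Between nude liver colonies and KP1 spheroids, which asks how growth in the liver of an immunocompromised mouse differs from culture, 11 of the 13 members tested were lower in liver and none higher. Of all 7834 genes tested, 16% were called lower and 17.7% higher, with edgeR's quasi-likelihood test and a Benjamini-Hochberg adjusted p under 0.05. The median log2 fold change was -1.61 over the members tested and -0.03 over all genes. mt-Nd4l and Gm28438 did not pass the filter on low counts. Without the filter 12 members were called lower and 2 higher, where 15% and 27% of all genes were. The 2 were mt-Nd4l and Gm28438, with means of 2.37 and 5.31 CPM in nude liver.

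mt-Nd6 codes for a complex I subunit and alone is read from the opposite strand of the circle; it overlaps mt-Nd5 by 14 bases, and the counting is not stated to have used strand. It ran from 132 CPM through a median of 315 to 875 CPM in spheroids, and from 1.25 through 46.2 to 456 CPM in nude liver. Of the nude liver libraries, 29 of 33 lay below the lowest spheroid library. The log2 fold change was -2.46 (SE 0.32, adjusted p 2.81e-09, edgeR), 5.5-fold lower. mt-Nd2 ran from 260 through 1165 to 3951 CPM in spheroids and from 8.35 through 337 to 888 CPM in the nude colonies, and its log2 fold change was -2.30 (SE 0.30, adjusted p 5.51e-09). mt-Nd1 ran from 3266 through 6946 to 12574 CPM in spheroids and from 82 through 1281 to 4623 CPM in nude liver (-2.18, SE 0.27, adjusted p 1.35e-09). For both genes every nude liver library was below the spheroid median, and the ranges overlapped. mt-Nd3 went from a median of 1532 CPM (868 to 4291) to 744 CPM (0 to 1681), with 22 of 33 liver libraries below all spheroids (-1.82, SE 0.28, adjusted p 1.53e-07). Among the other complex I genes, mt-Nd4 was lower (-1.61, adjusted p 8.21e-06) and mt-Nd5 was not called by edgeR (-0.27, SE 0.42, adjusted p 0.652). mt-Nd5 ran from 20.4 through 146 to 495 CPM in spheroids and from 0 through 73.3 to 1426 CPM in nude liver, with 25 of 33 liver libraries below the spheroid median. It was called lower by DESeq2 (-0.87, adjusted p 0.0339), by limma-voom (-1.51, adjusted p 0.00174) and with the replicate number as a block (-1.53, adjusted p 0.00648).

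Of the complex IV genes, mt-Co3 ran from 4633 through 19746 to 46058 CPM in spheroids and from 1584 through 6908 to 25248 CPM in nude liver, and 10 of 33 liver libraries lay below all spheroids. Its log2 fold change was -1.47 (SE 0.24, adjusted p 1.34e-06). Gm28437 fell further, from 10377 ± 5218 CPM to 1057 ± 1387 CPM (-3.41, SE 0.65, adjusted p 3.16e-05), and the sum of the pair fell from 31271 ± 9060 to 10306 ± 6840 CPM (-1.82, SE 0.21, adjusted p 1.48e-10, edgeR). By the sum, 18 of 33 liver libraries lay below all spheroids. mt-Co2 was lower as well (-0.90, SE 0.24, adjusted p 0.00176). Its level in spheroids was split by the spike-in content of the library, with 3615 ± 1471 CPM in the 9 libraries with spike-in and 9787 ± 3228 CPM in the 19 others. Against the 9 alone the difference in mt-Co2 was 0.08 (adjusted p 0.907). mt-Co1 missed the threshold alone (-0.79, SE 0.33, adjusted p 0.0526), and summed with Gm29216 it was lower (-1.01, SE 0.18, adjusted p 3.63e-06).

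The complex III gene mt-Cytb was lower in nude liver (-1.14, SE 0.27, adjusted p 5.07e-04), as were the ATP synthase genes mt-Atp6 (-1.54, SE 0.23, adjusted p 1.25e-07) and mt-Atp8 (-1.97, SE 0.50, adjusted p 0.00127). mt-Atp6 and mt-Atp8 overlap by 43 bases, and reads there cannot be told apart without further information. Their spheroid means were 8113 and 80.1 CPM. Without the 9 nude liver libraries whose hepatocyte marker sum was over 1000 CPM, all 11 members called lower were called again, and mt-Co1 joined them (-0.96, adjusted p 0.00937). When the comparison was limited to the 9 spike-in-bearing spheroid libraries, 9 members were called lower and none higher (7.13% and 12.4% of all genes in that fit), with mt-Co2 and mt-Cytb (-0.87) no longer called. Depth also differed between these groups, and its part in the result was not tested.

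Between F1 liver colonies and spheroids, 9 of 13 members were lower in liver and 1, the nuclear copy Gm28437, was higher. Gm28438 is left out of this and the following counts for F1 liver, since it passed the filter on low counts only through F1 liver, where it is high. Of all 7309 genes tested, 4.91% were called lower and 7.73% higher, and the median log2 fold change was 0.22 (edgeR). Among mitochondrial genes as deposited the largest falls were in mt-Nd6, mt-Co3 and mt-Nd3, and mt-Co3 and mt-Nd3 are summed with their copies below. mt-Nd6 had a median of 37.4 CPM (0.822 to 164) in F1 liver, and 29 of 31 libraries lay below all spheroid libraries. mt-Nd3 had a median of 293 CPM (72.2 to 861), and all 31 libraries lay below the lowest of the spheroid libraries at 868 CPM. The groups did not overlap for mt-Nd3, the only member of which this held in this comparison, and 0.0274% of all genes tested had ranges that did not overlap.

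mt-Co3 and its copy moved in opposite directions. mt-Co3 ran from 0.156 through 1185 to 17679 CPM in F1 liver, a fall of 5.9-fold from spheroids (log2 fold change -2.56, SE 0.41, adjusted p 9.62e-06). Gm28437 ran from 2966 through 18567 to 48291 CPM, against 1284 through 11086 to 22390 CPM in spheroids (1.28, SE 0.25, adjusted p 1.23e-04). The sum of the pair was 22814 ± 10369 CPM (3155 to 50515) in F1 liver and 31271 ± 9060 CPM (8380 to 57012) in spheroids, and it was not called (log2 fold change -0.17, 95% interval -0.55 to 0.20, SE 0.19, adjusted p 0.607). The ranges of the sum overlapped, with 4 of 31 F1 libraries below all spheroids and 26 below the spheroid median. The log2 ratio of the mean CPM is -0.45, and the fitted value comes from TMM-scaled libraries in which the median of all genes was 0.22. The copy was given 84.8 ± 22.6% of the pair's counts in F1 liver and 33.4 ± 15.9% in spheroids, 12.1 ± 15.8% in nude liver and 16.8 ± 15.7% in RPC, and it held over 50% in 26 of 31 F1 libraries.

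Among the captured groups, the copy of mt-Nd3 was likewise highest in F1 liver. Gm28438 had 231 ± 183 CPM in F1 liver, with counts in 26 of 31 libraries, and 0.384 ± 2.03 CPM in spheroids, with counts in 2 of 28. No test is given for it, because it entered the fit only through F1 liver. It was present in all 4 bulk spheroid libraries, at 83.3 CPM in KP1, 79.1 in KP2, 22.9 in KP3 and 72.5 in KP5, and there it held 25.6 to 46.5% of the pair, beside 40 ± 21.4% in F1 liver. The sum of mt-Nd3 and Gm28438 had a median of 528 CPM (145 to 1667) in F1 liver and 1532 CPM (868 to 4291) in spheroids, and it was lower in F1 liver (-1.54, SE 0.22, adjusted p 3.11e-07) by less than mt-Nd3 alone (-2.29, SE 0.24). Of the F1 libraries, 27 of 31 had a sum below all spheroids, so that the groups overlapped once the copy was added.

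**Figure D3:**
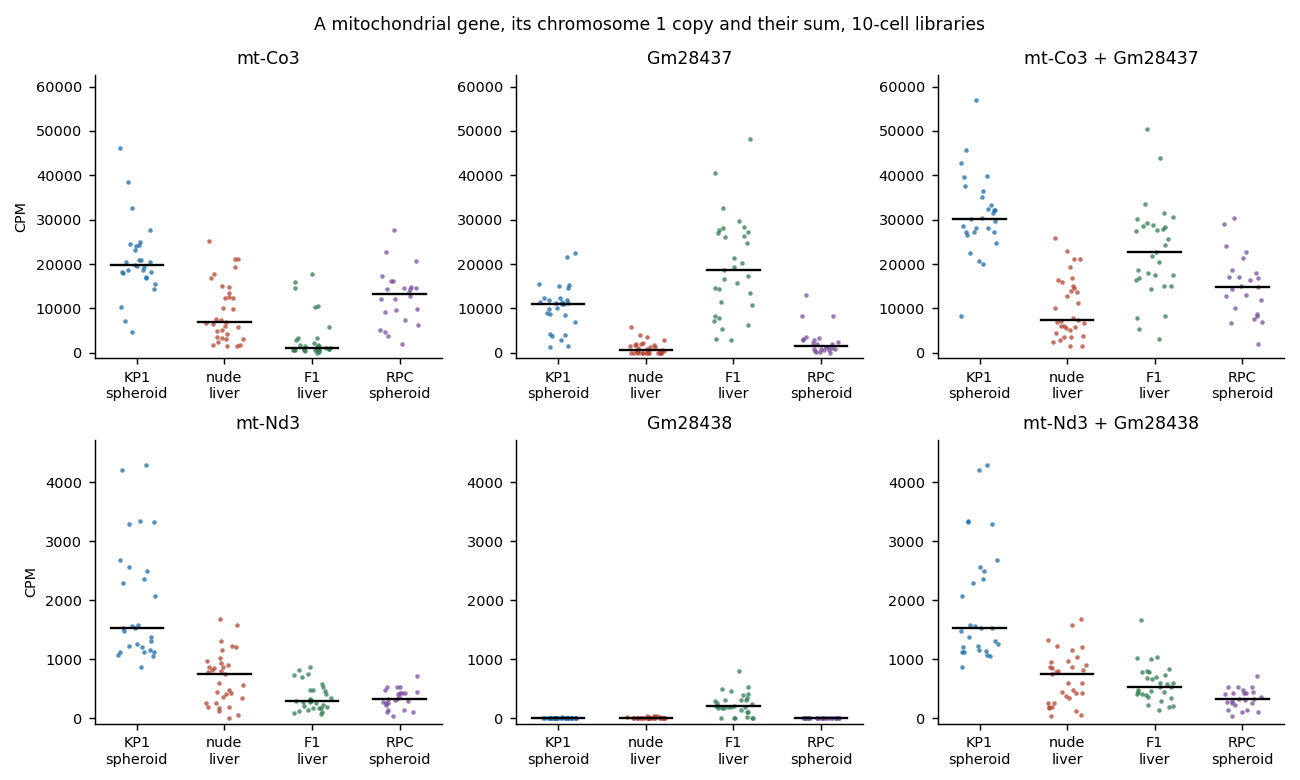
CPM of mt-Co3, of its copy Gm28437 and of their sum (upper row), and of mt-Nd3, Gm28438 and their sum (lower row) in 10-cell libraries (points; black lines are medians; linear axes shared within a row). The F1 liver libraries are low for mt-Co3 and high for Gm28437, and their sum has a median of 22771 CPM.

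The 5 F1 libraries with Rpl19-ps11 under 100 CPM, a level like that of spheroids and nude liver, and the 26 others differed in this division of reads. The limit of 100 CPM was chosen after seeing the data, and tests with 5 libraries have little power. The 5 had 13827 ± 3263 CPM of mt-Co3 (n = 5) against 1398 ± 1265 CPM in the 26 others, and 7994 ± 3469 CPM of Gm28437 against 21607 ± 10499 CPM. The copy held 35.8 ± 10.9% of the pair in the 5 and 94.3 ± 4.41% in the 26, beside the 33.4 ± 15.9% in spheroids. The sums of the pair were 21820 ± 5650 and 23005 ± 11121 CPM, and differed by less than the spread in either set. Gm28438 was at 2.15 ± 4.8 CPM in the 5 and 275 ± 167 CPM in the 26. Against spheroids, the 5 gave 3 of 13 members called lower and none higher, where 1.51% and 2.14% of all 10381 genes in that fit were, with log2 fold changes of -0.84 for mt-Co3 (adjusted p 0.201) and -0.48 for Gm28437 (adjusted p 0.54), whereas mt-Nd3 was still lower (-1.77, adjusted p 0.0185, edgeR). In the 26 the values were -3.38, 1.55 and -2.36.

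Of the remaining genes in F1 liver, mt-Nd2 was lower (-1.65, SE 0.27, adjusted p 8.31e-06), as were mt-Co2 (-1.25), mt-Nd4 (-0.96), mt-Nd1 (-0.88, SE 0.22, adjusted p 0.00362), mt-Atp6 (-0.76) and mt-Cytb (-0.62, SE 0.20, adjusted p 0.0305). mt-Co1 (0.30, adjusted p 0.528), mt-Atp8 (-1.16, adjusted p 0.0784) and mt-Nd5 (-0.08, adjusted p 0.937) were not called by edgeR. mt-Nd5 was called lower by limma-voom (-1.80, adjusted p 0.00469) and with the replicate block (-1.80, adjusted p 0.0299). DESeq2 and limma-voom called mt-Atp8 lower, as did edgeR with only the F1 libraries at or above 100 or 200 CPM of Rpl19-ps11. With all 7 pairs summed, 8 of 13 genes were lower and none higher, where 4.87% and 7.73% of all genes were. Without the 5 F1 libraries whose hepatocyte sum was over 1000 CPM, mt-Cytb was no longer called and the other 9 members were. With the spike-in-bearing spheroid libraries alone, 4 members were lower (mt-Nd2, mt-Co3, mt-Nd3 and mt-Nd6) and Gm28437 was higher, where 0.562% and 1.39% of all genes were.

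Between F1 and nude liver colonies, which differ in the host, 4 of 13 members were higher in F1 liver and 1 was lower. Of all 7064 genes, 10.5% were called higher and 7.9% lower, with a median log2 fold change of 0.24 (edgeR). mt-Nd1 ran from 16.4 through 3238 to 5629 CPM in F1 liver and from 82 through 1281 to 4623 CPM in nude liver (1.29, SE 0.29, adjusted p 7.68e-04). The groups overlapped widely, with 5 of 31 F1 libraries above all nude liver libraries. mt-Co1 (1.15, SE 0.35, adjusted p 0.0148) and mt-Atp6 (0.78, SE 0.25, adjusted p 0.0175) were also higher.

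The other called members were the mt-Co3 pair, and here the direction depended on how the pair was counted. mt-Co3 alone was lower in F1 liver (-1.09, SE 0.39, adjusted p 0.0437), Gm28437 was higher (4.67, SE 0.68, adjusted p 6.11e-07), and their sum was higher, at 22814 ± 10369 against 10306 ± 6840 CPM (1.67, SE 0.23, adjusted p 5.68e-08). By the sum, 13 of 31 F1 libraries lay above all nude liver libraries, and by mt-Co3 alone 18 of 31 lay below all of them. With the 5 F1 libraries under 100 CPM of Rpl19-ps11 the difference in mt-Co3 alone was 0.72 (adjusted p 0.343). In that fit 0 of 15 members (Gm28438 included) and 2.35% of all 10754 genes were called with edgeR, and 10 members had an unadjusted p under 0.05. Gm28438 stood at 5.31 ± 10.7 CPM in nude liver beside 231 ± 183 CPM in F1 colonies, with counts in 8 of 33 and 26 of 31 libraries and no test, as above, and the sum with mt-Nd3 did not pass the threshold (0.27, SE 0.24, adjusted p 0.472). Without libraries over 1000 CPM of hepatocyte markers, mt-Co3 alone was no longer called, and the other 4 members were. With all 7 pairs summed, 4 of 13 genes were higher in F1 liver, namely mt-Nd1, mt-Co1 (1.40, SE 0.21, adjusted p 5.14e-07), mt-Co3 and mt-Atp6, and none was lower. In that fit 10.5% of all genes were called higher and 7.89% lower.

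The pre-cancerous RPC line was set against KP1, both grown as spheroids. Of 13 members tested, 12 were lower in RPC and none higher, while 11.6% of all 8600 genes were called lower and 10.3% higher and the median log2 fold change over all genes was 0.01 (edgeR). Over the members tested the median was -1.42. Another scaling of the libraries, RLE in place of TMM, moved the median of all genes by 0.15 and the share of higher calls among all called genes from 46.9% to 57.8%. With it 10 members were called lower, where 9.6% of all genes were, and mt-Co2 (-0.56, adjusted p 0.064) and mt-Nd5 (-0.56, adjusted p 0.119) were not.

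mt-Nd3 did not overlap between the lines, which held for 0.756% of all genes tested. It ran from 37.9 through 329 to 721 CPM in RPC and from 868 through 1532 to 4291 CPM in KP1, a log2 fold change of -2.77 (SE 0.28, adjusted p 1.43e-12) or 6.8-fold. Gm28438 was at 0 in all 24 RPC libraries, so the sum of the pair gave the same separation. mt-Nd2 ran from 15.6 through 217 to 712 CPM in RPC (-2.52, SE 0.27, adjusted p 1.48e-11), below the KP1 median in every library. mt-Nd6 had a median of 90.4 CPM (15.8 to 288), and 18 of 24 RPC libraries lay below all KP1 libraries (-1.89, SE 0.25, adjusted p 9.1e-09). mt-Nd4 (-1.52), mt-Nd1 (-1.40) and mt-Nd5 (-0.71, SE 0.26, adjusted p 0.0442) completed the complex I genes called lower. mt-Nd5 was not called by DESeq2 (-0.56, adjusted p 0.081) or with the replicate block (-0.85, adjusted p 0.0737).

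Among the complex IV genes, mt-Co3 had a median of 13289 CPM (1927 to 27574) in RPC (-0.94, SE 0.25, adjusted p 0.00351), Gm28437 of 1632 CPM (0.12 to 13066) (-2.45, SE 0.37, adjusted p 4.12e-07), and their sum of 14854 CPM (2016 to 30475) (-1.27, SE 0.21, adjusted p 4.5e-06). All 3 overlapped with KP1. mt-Co2 was lower (-0.69, SE 0.24, adjusted p 0.0275), but against the 9 KP1 libraries with spike-in its difference was 0.29 (adjusted p 0.562). It was not called by DESeq2 or with the replicate block. mt-Co1 was not called alone (-0.11, SE 0.26, adjusted p 0.80) or with Gm29216 (-0.30, SE 0.18, adjusted p 0.257). mt-Cytb (-0.92), mt-Atp6 (-1.42) and mt-Atp8 (-2.10, SE 0.46, adjusted p 4.08e-04) were lower. Against only the 9 KP1 libraries with spike-in, 9 members were called lower and none higher (7.78% and 10.2% of all genes in that fit), with mt-Co2, mt-Cytb (-0.66) and mt-Nd5 (-0.60) no longer called. RPC and KP1 also differ in their genotype labels, which cannot be told apart from the line.

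**Figure D4:**
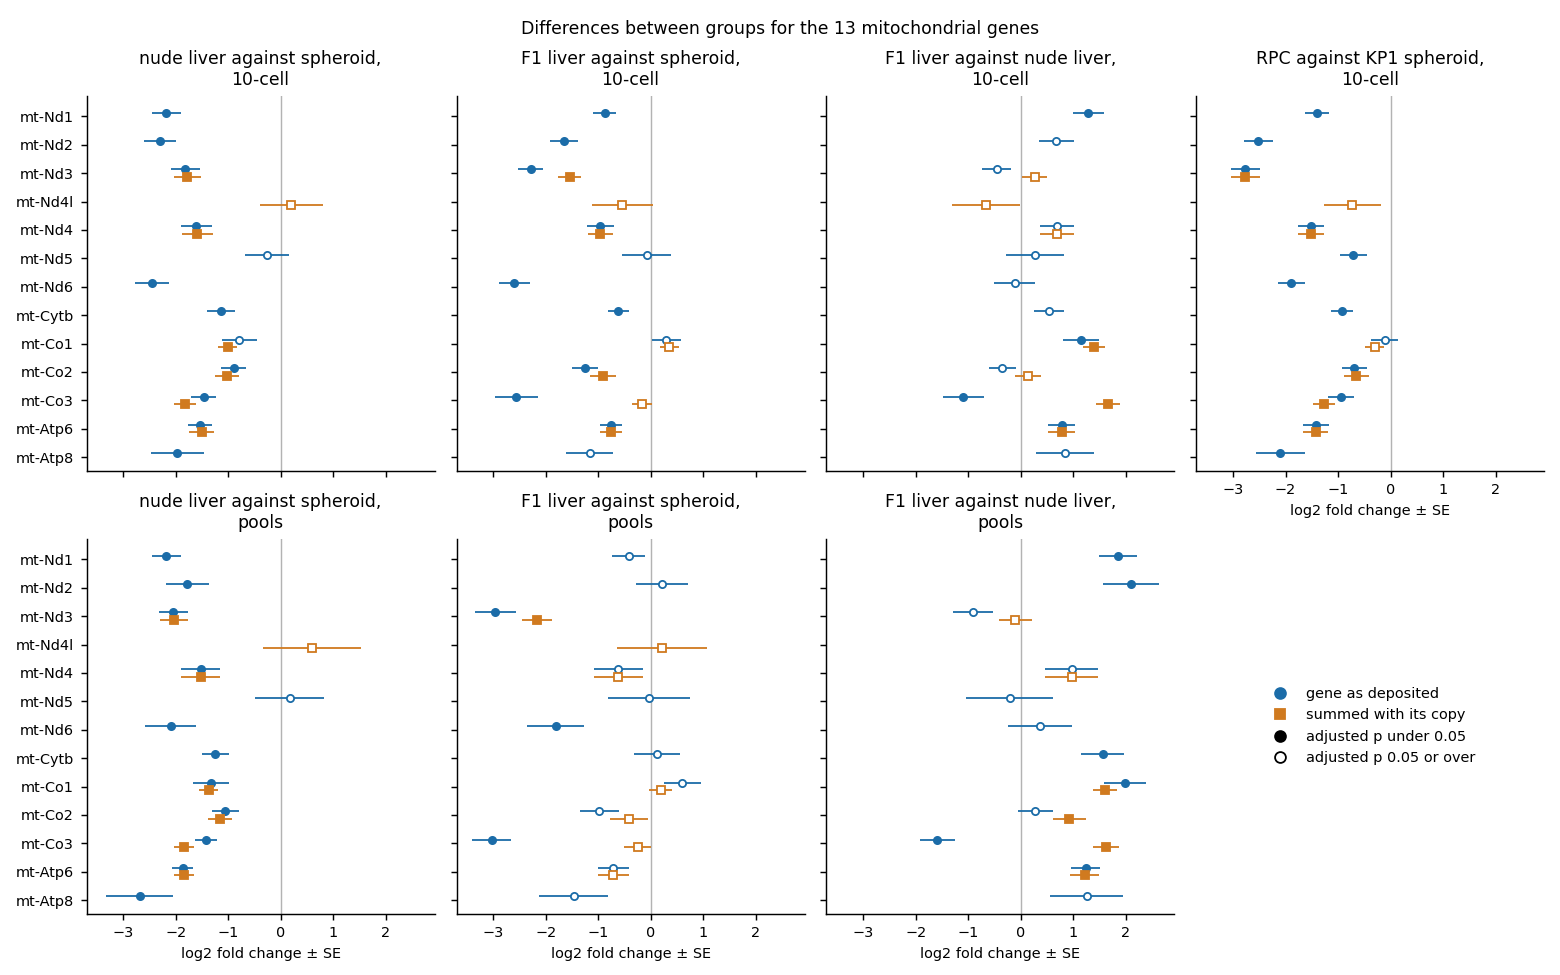
Log2 fold change with its SE for the 13 mitochondrial genes in 4 comparisons of 10-cell libraries and 3 of pools, for the gene as deposited (circles) and, for the 7 genes with a chromosome 1 copy, summed with it (squares); filled symbols have an adjusted p under 0.05. In the F1 comparisons mt-Co3 shifts to the right once its copy is added, and against nude liver it changes sign.

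The same contrasts of KP1 environments were also made between pool-and-split controls. By their design these are portions of mixed material, so the p-values measure the spread between portions and do not replicate an environment. Between nude liver and spheroid pools, 12 of 13 members tested were lower and none higher, with 9.14% of all 8010 genes called lower (edgeR). RLE scaling moved the median of all genes by -0.22 here and the share of higher calls from 64.4% to 54%. With it 12 members were called lower, where 12.4% of all genes were. The 13 genes held 1.45 ± 0.533% of counts (n = 35) in nude liver pools and 4.85 ± 1.02% (n = 20) in spheroid pools, and the groups did not overlap. mt-Nd1 ran from 38.6 through 728 to 4662 CPM against 3661 through 5702 to 7990 CPM (-2.18, SE 0.28, adjusted p 4e-09), and mt-Atp6 from 246 through 2303 to 5510 CPM against 3939 through 10034 to 13542 CPM (-1.87, SE 0.20, adjusted p 2.23e-11). For each of these, 34 of 35 liver pools lay below all spheroid pools. mt-Co1 was called here (-1.33, SE 0.35, adjusted p 0.00234), and mt-Nd5 was not (0.17, SE 0.66, adjusted p 0.883). The sign of mt-Nd5 turned with limma-voom (-2.36, adjusted p 5.71e-04) and with the replicate block (-2.29, adjusted p 0.024), both of which called it lower, and 19 of 35 liver pools lay below all spheroid pools and 3 above. Against the 6 spheroid pools that hold spike-in, 5 members were called lower and none higher, where 2.21% and 5.96% of all genes were.

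Between F1 liver and spheroid pools, 3 of 13 members were lower and 1 higher, against 2.65% and 8.94% of 7249 genes, and the median of all genes was 0.46. The count depended on the method: limma-voom called 11 lower and none higher, with 40.6% and 5.42% of all genes called. F1 pools under 200 CPM of Rpl19-ps11 gave 7 lower and none higher, where 9.57% and 9.66% of all genes were. The lower members were mt-Co3 (-3.03, SE 0.37, adjusted p 3.97e-08), mt-Nd3 (-2.96, SE 0.39, adjusted p 1.55e-07) and mt-Nd6 (-1.81, SE 0.54, adjusted p 0.0198). mt-Nd3 had a median of 86.3 CPM (0 to 419) in F1 pools and 1419 CPM (338 to 3098) in spheroid pools, with 23 of 24 F1 pools below all spheroid pools. The higher member was Gm28437 (1.12, SE 0.31, adjusted p 0.0127). Gm28438, given with no test, had 84.1 ± 70.4 CPM in F1 pools and no count in 20 spheroid pools, which makes it at least 103-fold higher in F1 pools, taking 3 counts per library as the floor. The mt-Co3 pair summed to 16677 ± 11686 against 29989 ± 5946 CPM and was not called (-0.25, SE 0.26, adjusted p 0.58), while 21 of 24 F1 pools lay below the spheroid median and 10 below all spheroid pools. The log2 ratio of these means is -0.85, and the fitted value comes from TMM-scaled libraries in which the median of all genes was 0.46. The mt-Nd3 pair was called lower (-2.17, SE 0.28, adjusted p 1.02e-07).

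Between F1 and nude liver pools, 6 of 13 members were higher and 1, mt-Co3, lower, against 8.19% and 3.69% of 6010 genes. mt-Nd2 (2.10, SE 0.53, adjusted p 0.00601), mt-Co1 (1.99), mt-Nd1 (1.86), mt-Cytb (1.56) and mt-Atp6 (1.24) were higher, as was Gm28437. Of these, mt-Nd2, mt-Cytb and mt-Atp6 were not called by limma-voom (1.47, 0.31 and 0.82, adjusted p 0.0905, 0.624 and 0.0574) or with the replicate block (1.09, 0.45 and 1.09), and mt-Cytb was not called by DESeq2 (0.49). Without libraries over 1000 CPM of hepatocyte markers mt-Cytb was no longer called. mt-Co3 alone was lower (-1.59, SE 0.33, adjusted p 7.03e-04) and with its copy higher (1.63, SE 0.25, adjusted p 3.06e-06), as in the 10-cell libraries. With only the 5 F1 pools of low Rpl19-ps11, 1 of 13 members was called, mt-Nd2, where 3.05% of all 9684 genes were.

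The difference between 10-cell and pool effects was tested gene by gene, and 1 member passed. For F1 liver over spheroid, mt-Nd2 differed by -1.83 (SE 0.55, adjusted p 0.0339, edgeR), with 4.06% of all 9976 genes called. Its level was 402 ± 330 CPM in F1 10-cell libraries and 619 ± 1204 CPM in F1 pools, against 1393 ± 865 and 846 ± 344 CPM in spheroids, and the highest F1 pool stood at 4656 CPM beside a median of 260 CPM. In pools the difference was 0.21 (adjusted p 0.833) with edgeR and -1.43 (adjusted p 0.0111) with limma-voom, beside -1.65 and -1.77 in 10-cell libraries. No member was called for nude liver over spheroid, where 2.25% of genes were, or for F1 over nude liver, where 5.2% were.

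Set directly against 10-cell libraries, spheroid pools were lower in 3 of 13 members tested, against 0.665% of all genes called lower. These were mt-Nd2 (-1.05, SE 0.22, adjusted p 0.00918), mt-Nd1 (-0.67, SE 0.15, adjusted p 0.017) and mt-Nd5 (-0.99, SE 0.25, adjusted p 0.0396). None of the 3 calls held with limma-voom (0 members and 1 of 8420 genes called), with the replicate number as a block (0 members, 0.636% of genes) or within the libraries that hold spike-in (0 members, 0 of 7497 genes), and 6, 6 and 8 members had an unadjusted p under 0.05 in these fits. DESeq2 called 4 members lower, the 3 among them, where 1.63% of all genes were. In nude liver none of 13 members was called, with 1.37% of genes called in either direction. There 2 members, mt-Co2 and mt-Nd3, and 961 of 6299 genes had an unadjusted p under 0.05. DESeq2 called 1 member lower, where 1.62% of genes were. In F1 liver 1 of 14 was called lower, mt-Nd3 (-1.46, SE 0.37, adjusted p 0.00886), where 1.69% of genes were. Gm28438 is counted here, since both groups are F1 liver. The call of mt-Nd3 held with limma-voom and DESeq2 and was lost with the replicate block and within the F1 libraries on either side of 200 CPM of Rpl19-ps11.

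No member was called for a difference in spread between 10-cell libraries and pools. Spread was measured per library as its distance from the median of its group on the log2(CPM + 1) scale and compared with limma. In spheroids 0 of 13 members and 0% of 8602 genes were called, and 0 members and 508 genes had an unadjusted p under 0.05. In nude liver 0 of 13 members were called, with 0.777% of genes, and 0 members and 1366 of 9397 genes had an unadjusted p under 0.05. In F1 liver 0 of 14 were called (Gm28438 included, since both groups are F1 liver), with 1.48% of genes. There 2 members, mt-Nd4 (-1.10, SE 0.40) and mt-Nd6 (-0.80, SE 0.38), had an unadjusted p under 0.05 with more spread in pools. In either direction 1561 of all 8759 genes had such a p. In spheroids the differences ranged over members from -0.12 for mt-Atp8 to 0.19 for mt-Co1.

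The bulk libraries of whole spheroids, made without the 10-cell amplification, gave another make-up of the same genes. With 1 library per line there is no test, and the 10-cell and bulk protocols differ, so the values are set side by side. The 13 genes held 1.02% of counts in KP1, 1.63% in KP2, 1.11% in KP3 and 1.51% in KP5 bulk. Because bulk and 10-cell libraries divide the pairs differently, each gene was summed with its copy and expressed as a percent of the counts on the 13 genes and 7 copies.

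The mt-Co3 pair made up 11.3 to 18.5% in bulk and a median of 43.7% (26.4 to 56.2) in KP1 spheroid 10-cell libraries, and the ranges did not overlap. mt-Nd1, which has no copy in the block, also took less in every bulk library (3.07 to 5.89%) than in any 10-cell library (6.01 to 15). mt-Cytb took more, at 7.72 to 9.16% in bulk against 1.41 to 5.06%. The same held for the mt-Nd4 pair (6.01 to 7.23% against 0.36 to 4.35%), mt-Nd5 (3.12 to 5.35% against 0.0784 to 0.486%), mt-Atp8 (1.55 to 1.93% against 0.00658 to 0.617%) and the mt-Nd4l pair (0.694 to 0.818% against 0 to 0.0388%). The ranges of the other 6 overlapped, among them the mt-Co1 pair at 20.8 to 29% in bulk and 6.5 to 21.1% in 10-cell libraries.

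Counted without their copies, several genes stood otherwise. mt-Co1 alone made up 26.6 to 35% of the counts on the 13 genes in bulk and 0.384 to 14% in 10-cell libraries. mt-Atp6 alone lay lower in bulk (3.69 to 5.93% against 6.66 to 26%), whereas its pair lay at 16 to 19% in bulk and 5.52 to 17.5% in 10-cell libraries. mt-Nd3 alone was at 0.559 to 1.22% against 1.55 to 7.82%, and its pair overlapped, at 0.623 to 1.49% against 1.17 to 5.98%.

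Per kilobase of gene, the bulk lines had 2695 to 3410 CPM of the mt-Co3 pair, 1879 to 3909 of the mt-Co1 pair and 1103 to 1495 of mt-Cytb, where spheroid 10-cell medians were 38579, 5551 and 1804 CPM per kb. mt-Co1 alone had 1761 to 3693 CPM per kb in bulk and a 10-cell median of 848, so the direction for this gene turned with its copy. The mt-Nd4l pair had 96.9 CPM in KP1, 171 in KP2, 116 in KP3 and 153 in KP5 bulk, and at most 33.5 CPM in spheroid 10-cell libraries. Among the 4 bulk lines mt-Co3 alone varied from 418 CPM in KP2 to 1702 CPM in KP5, whereas its sum with Gm28437 lay between 2113 and 2673 CPM, and the copy held 31.1% of the pair in KP3 and 83.3% in KP2.

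**Figure D5:**
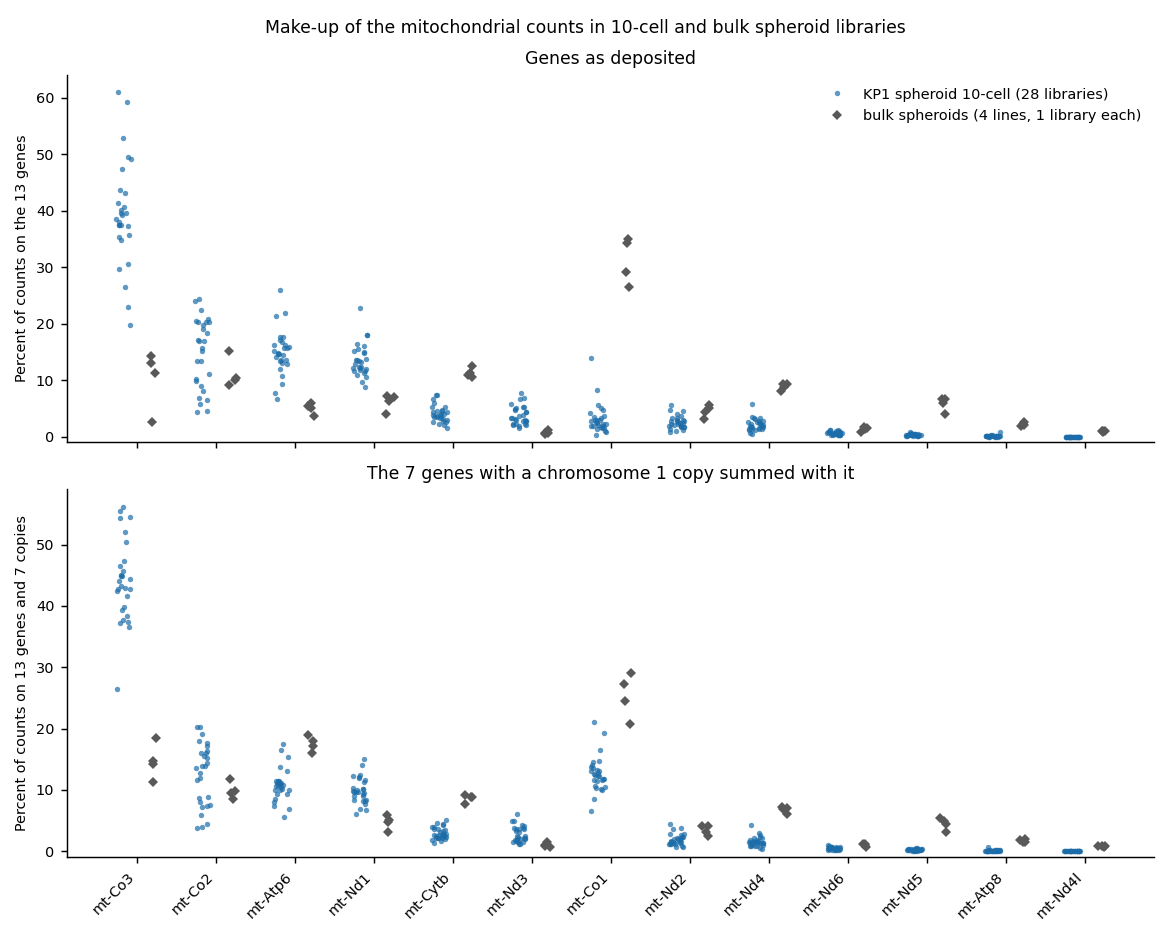
Percent of the mitochondrial counts that falls on each gene, as deposited (upper panel) and with the 7 genes that have a chromosome 1 copy summed with it (lower panel), in 28 KP1 spheroid 10-cell libraries (circles) and in 4 bulk spheroid libraries of the lines KP1, KP2, KP3 and KP5 (diamonds). With pairs summed mt-Co3 still leads the 10-cell libraries, and the bulk and 10-cell ranges of mt-Co1 and mt-Atp6 overlap.

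The division of the other pairs also differed between bulk and captured libraries. Gm10925, the full copy of mt-Atp6 up to the stop codon printed above, had 1913 to 3213 CPM in bulk, or 73.9 to 84.2% of the pair, and was at or near 0 in the captured groups, with 2 pools at 72.8 and 1126 CPM as the highest. Gm29216 held 3.43 to 8.04% of the mt-Co1 pair in bulk and group means of 72.4 to 83% in captured libraries. Gm28661 held 12.7 ± 13.7% of the mt-Co2 pair in spheroid, 3.91 ± 9.29% in nude liver, 32.7 ± 11% in F1 liver and 15.9 ± 13.1% in RPC 10-cell libraries. Gm28439 was at 0 in bulk, spheroid and RPC libraries, and 6 further rows elsewhere in the genome that share stretches of at least 50 bases with mitochondrial genes reached a group mean of at most 2.11 CPM.

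The nuclear genes for the other subunits of complexes I, III, IV and V, 72 in number, were also lower in nude liver than in spheroids. Of these 50 were called lower and 6 higher, where 16% and 17.7% of all genes were, with a median log2 fold change of -1.15 against -0.03 for all genes (edgeR). In complex IV all 11 were lower, with a median of -2.20; Cox6c fell from 1547 ± 591 to 340 ± 191 CPM (-2.44, SE 0.26, adjusted p 8.13e-12). In complex I 25 of 36 were lower and 4 higher, and Ndufa10 was among the higher ones (1.48, SE 0.30, adjusted p 6.33e-05). Complex III had 3 of 9 lower, with Uqcrb at -3.02 (SE 0.41), and complex V 11 of 16 lower and 2 higher, with Atp5j at -2.71 (SE 0.28). In F1 liver 20 of the 72 were lower and 3 higher than in spheroids (4.91% and 7.73% of all genes), with a median of -0.28 against 0.22 for all genes. Against nude liver 36 were higher and 2 lower (10.5% and 7.9% of all genes), with a median of 0.83 against 0.24, and Cox8a was among the higher ones (1.90, SE 0.32, adjusted p 6.47e-06). In RPC 27 were lower and 1 higher than in KP1 (11.6% and 10.3% of all genes), with a median of -0.41 against 0.01. The comparisons with spheroids share the spheroid libraries.

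Genes that maintain or express mitochondrial DNA were counted in the same way. Of 10 transcription genes, 6 could be tested between nude liver and spheroids, and 2 were higher and 2 lower, where 17.7% and 16% of all genes were. Tfam, which packages the circle and starts its transcription, was lower, at 54.1 ± 106 against 137 ± 121 CPM (-1.42, SE 0.57, adjusted p 0.0459), as was Mterf2 (-2.19, SE 0.77), and Mterf3 (2.18, SE 0.43, adjusted p 4.63e-05) and Mterf4 (2.26, SE 0.59) were higher. Between F1 and nude liver 1 of 5 tested was higher and 1 lower (10.5% and 7.9% of all genes). Polrmt, the mitochondrial RNA polymerase, was higher in F1 liver (2.60, SE 0.78, adjusted p 0.0118), at 52.8 ± 97.2 against 11.1 ± 20.9 CPM, and Mterf3 was lower (-1.38, SE 0.44, adjusted p 0.0184). None was called in F1 liver (of 5, with 7.73% of all genes higher and 4.91% lower) or RPC (of 6, with 10.3% and 11.6%) against spheroids. Of 12 genes of DNA maintenance, 2 of 7 tested were higher in nude liver than in spheroids (17.7% of all genes), namely Polg, the mitochondrial DNA polymerase (1.56, SE 0.42, adjusted p 0.00226), and Twnk, its helicase (1.06, SE 0.43, adjusted p 0.0494), and 3 of 9 were higher in RPC (10.3% of all genes), Mgme1 among them (2.68, SE 0.70). None of 7 was called in F1 liver against spheroids, where 7.73% of all genes were higher and 4.91% lower.

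Among 26 genes of mitochondrial RNA processing and stability, 3 of 21 tested were higher and 4 lower in nude liver than in spheroids, near the 17.7% and 16% of all genes. Lrpprc, which with Slirp stabilises mitochondrial messages, fell from 128 ± 69.9 to 41.6 ± 45.2 CPM in nude liver (-1.78, SE 0.41, adjusted p 4.03e-04) and was at 72.8 ± 63.7 CPM in RPC (-1.01, SE 0.33, adjusted p 0.0199). In F1 liver 1 of 20 was higher and 1 lower than in spheroids (7.73% and 4.91% of all genes), and in RPC 2 of 24 were higher and 2 lower (10.3% and 11.6%). The higher ones were Trub2, a pseudouridine synthase of mitochondrial RNA, in F1 liver (2.81, SE 0.69, adjusted p 0.00369) and in RPC (2.74, SE 0.50, adjusted p 2.11e-05), and Grsf1, an RNA-binding protein of mitochondrial RNA granules, in RPC (1.33, SE 0.42, adjusted p 0.0154). Trub2 was higher in nude liver too (1.61, SE 0.50, adjusted p 0.00871). Slirp was lower in F1 liver (-0.88, SE 0.24, adjusted p 0.00985) and in RPC (-0.72, SE 0.24, adjusted p 0.0195) than in KP1 spheroids. Of 8 translation factors tested, 2 were higher and 1 lower in nude liver than in spheroids (17.7% and 16% of all genes). In F1 liver 1 of 8 was higher and none lower (7.73% and 4.91% of all genes). Tufm, the mitochondrial elongation factor, was higher in nude liver (1.25, SE 0.34, adjusted p 0.00228) and in F1 liver (0.98, SE 0.35, adjusted p 0.0499), and Mtrf1l, a release factor, was lower in nude liver (-2.16, SE 0.59, adjusted p 0.00266). None of 9 was called in RPC, where 10.3% of all genes were higher and 11.6% lower. Of 79 proteins of the mitochondrial ribosome, 26 of 76 tested were lower and 9 higher in nude liver (16% and 17.7% of all genes), with a median of -0.71 against -0.03 for all genes. In F1 liver 3 of 77 were lower and 2 higher (4.91% and 7.73% of all genes), with a median of -0.01 against 0.22. In RPC 17 of 78 were lower and 4 higher (11.6% and 10.3% of all genes), with a median of -0.38 against 0.01. Between F1 and nude liver 10 of 74 were higher and 1 lower (10.5% and 7.9% of all genes), with a median of 0.63 against 0.24. In complex II, which has no mitochondrially coded part, 1 of 3 genes tested was lower in each comparison with spheroids, with list medians of -0.57 in nude liver, -0.31 in F1 liver and -0.01 in RPC beside 16%, 4.91% and 11.6% of all genes called lower. That gene, Sdhb, was lower in nude liver (-1.42, SE 0.38, adjusted p 0.00225), F1 liver (-0.91, SE 0.30, adjusted p 0.0322) and RPC (-1.94, SE 0.26, adjusted p 1.80e-08).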

How the data were processed

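RNA-seq libraries were compared from the authors' deposited table of expected counts, the reads estimated for each gene, unscaled (10.7% of values are not whole). The submitters' processing notes name RSEM, Bowtie2, GRCm38 and GRCh38.p12, and versions are not given in the sources used here. Groups were taken from the sample labels. Counts were rounded for edgeR 4.0.16 (R 4.3.3), with TMM scaling, filterByExpr and robust quasi-likelihood tests on the groups compared, over all genes without the spike-ins, adjusted by Benjamini-Hochberg. Spread was tested with limma 3.58.1 on log2(CPM + 1), keeping genes whose mean reached 5 CPM. Pairs were summed before the fit. Gene, copy and transcript sequences came from GENCODE M21 on GRCm38.

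The members, gene lists, tests and alternatives were chosen with earlier results of these data known. All members are named; of each nuclear list, up to 2 genes per direction and comparison with the smallest adjusted p and a mean of at least 10 CPM could be named. Alternatives were RLE scaling, no filter, DESeq2 1.42.0, limma-voom, library sizes without mitochondrial rows, a replicate block, subsets of libraries, other pseudocounts and summed pairs. The edgeR fit of nude liver against spheroid and the spread test in spheroids were run on simulated data, and the other fits were not. Without molecular identifiers, floors cover counting error only.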

Additional observations from a re-analysis of the deposited data

Results flagged for a closer look

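For mt-Nd2 the difference between F1 liver and spheroid was tested between 10-cell libraries and pools and passed with edgeR. The log2 fold change of F1 liver over spheroid was lower in 10-cell libraries than in pools by a difference of -1.83 (SE 0.55, edgeR interaction, adjusted p 0.0339 over all genes). The F1 pools spread from 1.53 to 4656 CPM of mt-Nd2, with a median of 260 CPM, and the F1 10-cell libraries from 5.21 to 1333 CPM, with a median of 318 CPM. In pools the difference was 0.21 (adjusted p 0.833) with edgeR and -1.43 (adjusted p 0.0111) with limma-voom, and in 10-cell libraries -1.65 and -1.77, so the gap between both kinds of library was smaller with limma-voom, where it was not itself tested. The spheroid medians were 817 CPM in pools and 1165 CPM in 10-cell libraries. Pools and 10-cell libraries also differed in spike-in content, with medians of 13.2% and 2.16% in F1 liver, and its part in this difference was not tested.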

How the results depend on the processing

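Of 69 member values called over the comparisons of means, 29 were called under every alternative run. The 69 include the calls of Gm28438 in the F1 contrasts, which give no support, since it passed the filter only through F1 liver. The 814 values of the 69 under alternatives kept the call in 710 cases, lost it in 88 and changed sign in 16. A sign change is given only where one of both settings called the value. RLE scaling moved the median of all genes by -0.22 to 0.15 and lost 3 of the 69 calls. In pools against 10-cell libraries of nude liver it moved the share of higher calls among the called genes from 74.4% to 64.2%. The counts for nude liver and RPC against spheroids in 10-cell libraries, and for the spread, stayed within 1.5 times under all alternatives.

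In contrasts of F1 liver with another environment the counts below leave out Gm28438, which passed the filter only through F1 liver. The percent of all genes called in the same fit follows each count. F1 against spheroid (10-cell, 10 members called) gave 5 calls with the spheroid libraries that hold spike-in (0.562% lower and 1.39% higher). It gave 3 with F1 libraries under 200 CPM of Rpl19-ps11 (3.57%) and 3 under 100 CPM (3.65%). F1 against nude liver (10-cell, 5 called) gave 0 under 200 (2.93%) and 0 under 100 CPM (2.35%). In pools, nude liver against spheroid (12 called) gave 5 with spike-in libraries (8.17%). F1 against spheroid (1 higher and 3 lower) gave 7 without the filter (1 and 6, 28.3%) and 11 with limma-voom (all lower, 46.1%). It gave 2 with mt-Co3 summed (11.5%), 2 with all pairs summed (11.5%) and 2 with spike-in libraries (0.262%). Under 200 CPM it gave 7 (all lower, 19.2%) and under 100 CPM 9 (all lower, 18.8%). F1 against nude liver (7 called) gave 4 with limma-voom (13.7%), 0 under 200 (4.43%) and 1 under 100 CPM (3.05%). Spheroid pools against 10-cell (3 called) gave 5 without the filter (11%), 0 with limma-voom (0.0119%) and 0 with spike-in libraries (0%). Nude liver pools against 10-cell (0 called) gave 1 with RLE scaling (1.29%), 2 without the filter (22.2%) and 1 with DESeq2 (3.24%). F1 pools against 10-cell (1 called) gave 2 without the filter (24.6%) and 0 at or above 200 (4.06%), under 200 (0%) and under 100 CPM (0%). Smaller subsets hold fewer samples, and for the other settings the cause was not tested. The limit of 200 CPM falls inside the upper cluster of libraries, and 100 CPM was chosen after seeing the data, as was the summing of all pairs.

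Replicate numbers were shared between groups, and the labels do not say whether they pair the libraries. The correlation of same-numbered libraries ran from -0.225 to 0.409 over the comparisons, and at most 5 pairs of a comparison exceeded 0.1. Such correlations cannot decide whether a number marks a shared batch, which was not tested. The block also leaves out libraries whose number is not shared. With the number as a block, 13 members were called in nude liver against spheroid (35.8% of all genes), 12 in F1 against spheroid (12.9%), 6 in F1 against nude (13.2%) and 10 in RPC (24.1%) in 10-cell libraries. In pools 13 (39.9%), 8 (2 higher and 6 lower, 27.1%) and 5 (3.31%) were called in the first 3 contrasts. In pools against 10-cell libraries 0 were called in spheroids (0.636%), nude liver (0.0322%) and F1 liver (0.0176%). The block turned mt-Nd5 in nude liver pools to -2.29 (20 pairs, adjusted p 0.024, called lower).

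These values changed sign, and the cause was not tested where no subset or sum is named. With spike-in spheroid libraries only, mt-Co2 was 0.08 for nude liver, 0.29 for RPC and 0.19 for nude pools. Against spheroids, F1 libraries under 200 and under 100 CPM gave 0.11 and 0.20 for mt-Cytb and -0.28 and -0.48 for Gm28437, and such pools gave -0.49 and -1.03 for Gm28437 and, under 100 CPM, -1.25 for mt-Cytb. Against nude liver they gave 0.47 and 0.72 for mt-Co3 and, under 100 CPM, -0.98 for Gm28438, whose call in the full set is not counted above. Summing moved mt-Co3 in F1 against nude liver to 1.67 (10-cell, either sum) and to 1.64 (mt-Co3 pair) and 1.63 (all pairs) in pools. Limma-voom gave -2.36 for mt-Nd5 in nude pools (called lower) and -1.43 for mt-Nd2 and -1.24 for mt-Cytb in F1 pools against spheroid pools. Leaving out single libraries was not run: the labelled groups compared hold 20 or more, and results of the subset of 5 F1 libraries have no such check.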
